A study of Homo sapiens with 6 samples.

Results

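Osteopontin, the secreted phosphoprotein encoded by SPP1, and 9 genes that encode its cell-surface receptors were examined in pancreatic cancer cells with and without induced GLI2. The receptor genes were CD44, the integrin alpha subunits ITGAV, ITGA5, ITGA4 and ITGA9, and the integrin beta subunits ITGB1, ITGB3, ITGB5 and ITGB6. These 10 genes, of 25442 in the deposited table, were chosen by name, with earlier results of these data known. They are the ligand and subunits of its receptors, though not every known one, and each was found in the table.

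Osteopontin is a matrix and cytokine-like protein that carries an arginine-glycine-aspartate motif, and cells bind it through integrins and through CD44. An integrin is a pair of an alpha and a beta chain, and the pair decides which ligands are bound. The alpha v chain pairs with beta 1, beta 3, beta 5 or beta 6 to bind the arginine-glycine-aspartate motif, as alpha 5 beta 1 also can, whereas alpha 4 beta 1 and alpha 9 beta 1 bind a neighbouring motif. In pancreatic cancer, osteopontin is made by tumour cells as well as by macrophages. GLI2 is a transcription factor of the Hedgehog pathway.

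RNA was sequenced from 6 libraries of YAPC, a human pancreatic cancer line, 3 from iGLI2 cells, which carry pRetroX-Tight-Puro with GLI2, and 3 from iEV cells, which carry the same plasmid as an empty vector (EV). Both groups were kept in full growth medium with Dox (doxycycline, which switches the vector on) for 6 days, so that Dox was shared by the controls. The labels do not say whether the replicates came from separate cultures, and the p-values measure only the spread between these libraries. The model is a single line in which the GLI2 protein is made from a Flag-tagged cDNA, and no library of cells without Dox was analysed here.

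Values are FPKM (fragments per length of transcript, relative to the fragments of the library), so that levels can be compared between genes. The files hold no read counts and the depth is unknown. GLI2 was between 0.344 and 0.466 FPKM in the iEV libraries and was 94.5, 207 and 195 FPKM in iGLI2 replicates 1, 2 and 3, which matched the labels. Total FPKM was lower in every iGLI2 library (803145 to 889555) than in every iEV library (981341 to 1082684), and the short RNA gene MIR4461 held 35.7% to 37.7% of it against 42.6% to 45.4%. Among the markers of ductal epithelium, EPCAM was between 396 and 526 FPKM, KRT19 between 521 and 682 FPKM and CDH1 between 51.0 and 72.5 FPKM, whereas KRT8 and KRT18 were listed at 0 in all 6 libraries, so a 0 was not read as absence. Of the 3 tested, EPCAM and CDH1 rose and KRT19 did not pass, and the CDH1 call was lost without iEV replicate 2 or 3 or iGLI2 replicate 2 or 3 (adjusted p between 0.0659 and 0.0811, limma). Of the 4 leukocyte and macrophage markers, PTPRC, CSF1R and CD163 stayed at or below 0.126 FPKM, and the list summed to between 4.20 and 5.37 FPKM in iEV and between 1.35 and 2.12 FPKM in iGLI2 libraries, in which CD14, the 1 tested, fell from 4.64 to 1.62 FPKM. The 5 fibroblast markers summed to 1.36 to 1.57 FPKM in iEV and 2.31 to 3.02 FPKM in iGLI2 libraries, where COL1A1, the 1 tested, rose from 1.41 to 2.69 FPKM (adjusted p = 0.0511 without iEV replicate 2, limma), and the 3 endothelial markers, none of them tested, summed to at most 0.411 FPKM.

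The coding sequences printed here show where ligand and receptor chains meet their partners. The stretch of SPP1 that holds the receptor motifs lies in exon 6 of 7 at chr4:88902861-88902938 (hg19, plus strand) and was read from the GRCh37 genome with the GENCODE annotation. The codons of the arginine-glycine-aspartate motif, residues 159 to 161 of the precursor, are in capitals in the first line, and those of the adjoining motif for alpha 4 beta 1 and alpha 9 beta 1, residues 162 to 168, in the second.
SPP1, arginine-glycine-aspartate: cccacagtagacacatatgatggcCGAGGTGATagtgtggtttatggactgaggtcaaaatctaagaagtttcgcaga
SPP1, alpha 4 and alpha 9 motif: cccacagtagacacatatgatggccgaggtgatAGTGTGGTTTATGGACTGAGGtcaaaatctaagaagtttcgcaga

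The 4 beta subunits share, in the tail inside the cell, a motif of asparagine, proline, any residue and tyrosine, to which talin and other adaptors bind. Its codons are in capitals below, 5′ to 3′ on the coding strand, and each stretch of 48 bases spans the junction to the last coding exon. The motif begins at residue 780 in ITGB1, 770 in ITGB3, 771 in ITGB5 and 759 in ITGB6.
ITGB1, chr10:33197296-33197307 and chr10:33190528-33190563, minus strand: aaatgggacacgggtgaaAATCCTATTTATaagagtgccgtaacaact
ITGB3, chr17:45384992-45385003 and chr17:45387505-45387540, plus strand: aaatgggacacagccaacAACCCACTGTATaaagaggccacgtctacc
ITGB5, chr3:124483238-124483249 and chr3:124482530-124482565, minus strand: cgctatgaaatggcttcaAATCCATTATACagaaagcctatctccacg
ITGB6, chr2:160964190-160964201 and chr2:160958310-160958345, minus strand: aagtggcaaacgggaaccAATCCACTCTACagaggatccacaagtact

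Over these stretches ITGB1 shared 29 of 48 bases with ITGB3, 28 with ITGB6 and 23 with ITGB5. The motif itself differed between the 4 genes in its codons. The alpha subunits carry a different motif beside the membrane, glycine, 2 phenylalanines and 2 basic residues, which is shown in capitals for ITGAV and ITGA5, the alpha members at over 1 FPKM in every library.
ITGAV, chr2:187541648-187541662 and chr2:187541924-187541959, plus strand: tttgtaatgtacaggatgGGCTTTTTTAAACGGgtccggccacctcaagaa
ITGA5, chr12:54791149-54791163 and chr12:54790125-54790160, minus strand: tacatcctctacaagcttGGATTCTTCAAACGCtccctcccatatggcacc

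The comparison of iGLI2 with iEV asked which of the osteopontin receptors changed with GLI2. SPP1, CD44, ITGA5 and ITGB1 rose, ITGB6 fell, and ITGAV and ITGB5 did not pass the test. That is 5 of the 7 members tested, where 21.9% of all 12493 genes tested passed (limma on log2(FPKM + 1), Benjamini-Hochberg adjusted p under 0.05, genes whose mean over the libraries reached 1 FPKM). In the upward direction 4 of the 7 passed against 10.1% of all genes, and in the downward direction 1 of the 7 passed against 11.8%. The paper had named SPP1 among the most upregulated transcripts of this same experiment, so its call is not independent of that choice. Of the 6 receptors tested, without SPP1, 4 passed, 3 of them upward. The other 3 members, ITGB3, ITGA4 and ITGA9, had means under 1 FPKM and were fitted without the filter, where 15.1% of 20035 genes passed in either direction. The median log2 fold change was 0.86 for the 7 members tested, 0.45 for the 6 receptors among them and -0.015 for all genes tested. The ranges of the groups did not overlap for 5 of the 7 members tested, and 42% of all genes tested had such ranges. They did not overlap for ITGB3 and ITGA4 either. All fold changes were taken from log2(FPKM + 1), a scale that understates the change of genes at low levels. Fewer cells that express a gene and less RNA per cell cannot be told apart in these bulk libraries.

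**Figure D1:**
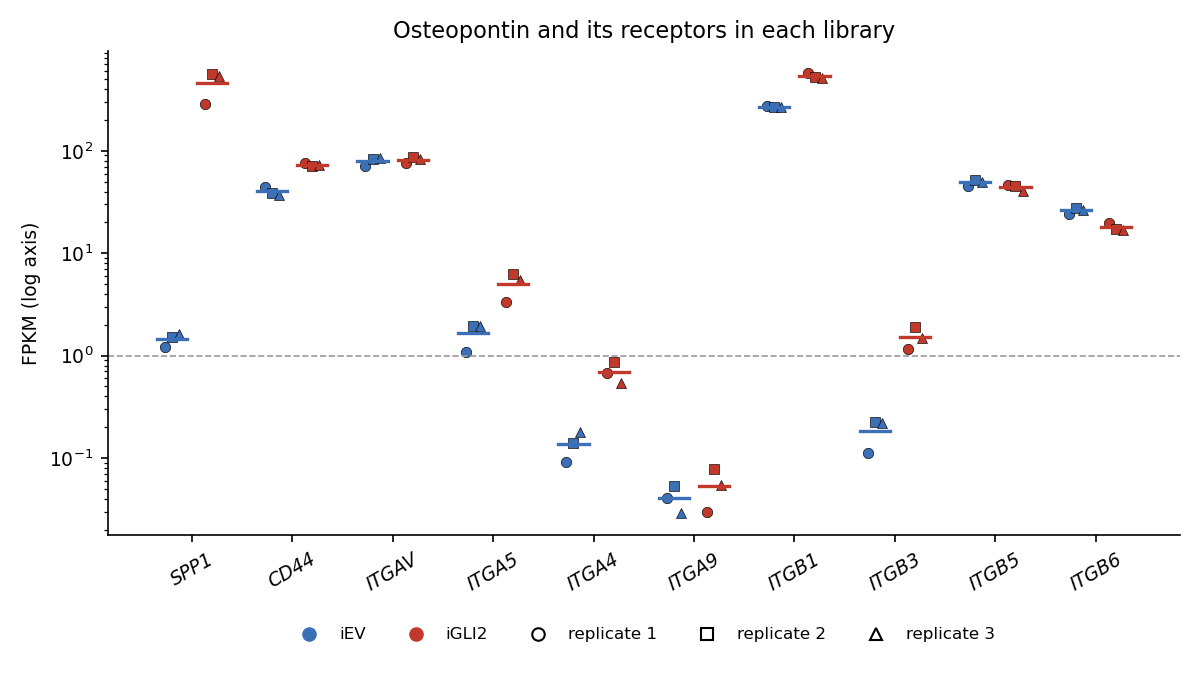
FPKM of the 10 genes (log axis) in each library, iEV in blue and iGLI2 in red, with a symbol for each replicate and a bar at the group mean (n = 3), and the dashed line at 1 FPKM, the filter on the mean. The groups are apart for SPP1, CD44, ITGA5, ITGA4, ITGB1, ITGB3 and ITGB6 and overlap for ITGAV, ITGB5 and ITGA9.

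SPP1 (chr4:88896802-88904563) was the ligand and the member that moved most. It was 1.21, 1.52 and 1.63 FPKM in the iEV libraries and 286, 562 and 536 FPKM in the iGLI2 libraries. The lowest iGLI2 library, replicate 1, was at 0.521 times the mean of replicates 2 and 3, and for GLI2 the same library was at 0.470 times that mean. SPP1 rose by 7.50 on the log2 scale (SE 0.27, adjusted p = 0.000132), and its rank by level among the genes tested went from 11650 to 162. Of the 4 leukocyte and macrophage markers, PTPRC, CSF1R and CD163 were at most 0.126 FPKM in any library and CD14 was 4.10 to 5.26 FPKM in iEV and 1.30 to 1.94 FPKM in iGLI2 libraries, and their part in the SPP1 values was not tested. In iEV cells the receptors CD44, ITGAV, ITGB1, ITGB5 and ITGB6 were each above their ligand in FPKM. In iGLI2 cells ITGB1 alone had a higher mean level than SPP1, and their ranges overlapped.

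CD44 (chr11:35160417-35253949), the hyaluronan receptor that also binds osteopontin, was 44.1, 39.0 and 37.1 FPKM in the iEV libraries and 75.6, 71.7 and 72.6 FPKM in the iGLI2 libraries. Every iGLI2 library was above every iEV library, and the iGLI2 values lay close together. The mean was 40.1 ± 3.62 FPKM in iEV and 73.3 ± 1.99 FPKM in iGLI2 (SD, n = 3), a ratio of 1.83. CD44 rose by 0.86 on the log2 scale (95% CI 0.66 to 1.05, adjusted p = 0.00138, limma). CD44 is spliced into standard and variant forms, 25 coding transcripts in the annotation, and the table gives 1 value for all of them. Its level in iGLI2 replicate 1 was 1.05 times the mean of replicates 2 and 3, whereas GLI2 and SPP1 were lowest in that library.

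The alpha subunits differed widely in level and in change. ITGAV (chr2:187454790-187545629), the alpha v chain, was 70.3, 82.7 and 84.8 FPKM in iEV and 75.7, 86.3 and 83.7 FPKM in iGLI2 libraries. The groups overlapped, and the log2 fold change was 0.050 (95% CI -0.19 to 0.29, adjusted p = 0.751, limma). ITGAV was the alpha member with the highest level in both groups.

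ITGA5 (chr12:54747475-54867386, minus strand), the alpha 5 chain of the main fibronectin receptor, was 1.09, 1.95 and 1.96 FPKM in iEV and 3.34, 6.24 and 5.52 FPKM in iGLI2 libraries. Replicate 1 was the lowest library in both groups, and the groups did not overlap. The mean was 1.67 ± 0.497 FPKM in iEV and 5.03 ± 1.51 FPKM in iGLI2 (SD, n = 3), a ratio of 3.02. ITGA5 rose by 1.16 on the log2 scale (95% CI 0.58 to 1.74, adjusted p = 0.0199, limma). The call was kept without iGLI2 replicate 1 and lost without any other library, with an adjusted p of 0.0506 without iEV replicate 1, 0.0571 without iEV replicate 2, 0.0563 without iEV replicate 3, 0.0650 without iGLI2 replicate 2 and 0.0691 without iGLI2 replicate 3. The table places ITGA5 at one locus with 4 other entries, GPR84, GTSF1, ZNF385A and LOC102724050, and how reads were divided among them is not given in the sources used here.

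ITGA4 and ITGA9, the alpha chains that bind the motif beside arginine-glycine-aspartate, were at low levels. ITGA4 (chr2:182321619-182521834) was 0.0924, 0.139 and 0.180 FPKM in iEV and 0.674, 0.868 and 0.539 FPKM in iGLI2 libraries, with no overlap and a ratio of means of 5.07. In the fit without the filter, where 7.44% of genes passed upward, ITGA4 rose by 0.57 on the log2 scale (SE 0.076, adjusted p = 0.00751, limma). CERKL lies at the same locus on the opposite strand and shares 26.4% of the exonic bases of ITGA4, and without a stated use of strand reads from these genes cannot be told apart. ITGA9 (chr3:37493813-37903271) was at most 0.0779 FPKM in any library, with overlapping groups and a log2 fold change of 0.018 (95% CI -0.035 to 0.071, adjusted p = 0.645, limma).

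The beta subunits moved in different directions. ITGB1 (chr10:33189246-33247293, minus strand), the common partner of many alpha chains, was 273, 265 and 270 FPKM in iEV and 578, 531 and 514 FPKM in iGLI2 libraries. It was the receptor with the highest level in every library, and its rank among the genes tested went from 321 to 142. ITGB1 rose by 1.00 on the log2 scale (SE 0.067, adjusted p = 0.000554, limma), and over the alternatives with a library left out its log2 fold change was between 0.95 and 1.04.

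ITGB3 (chr17:45331208-45401267), the beta 3 chain known from platelets, osteoclasts and invasive tumour cells, was 0.112, 0.226 and 0.217 FPKM in iEV and 1.16, 1.90 and 1.48 FPKM in iGLI2 libraries. All iGLI2 libraries were above 1 FPKM and all iEV libraries below it. The ratio of means was 8.17, the largest among the receptors, and in the fit without the filter ITGB3 rose by 1.08 on the log2 scale (SE 0.12, adjusted p = 0.00372, limma). With 0.1 in place of 1 added to the values, the log2 fold change was 2.50. A read-through gene of the same strand shares 33.2% of its exonic bases, and the entry THCAT158 lies at the same locus.

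ITGB5 (chr3:124480795-124606152, minus strand), the beta 5 chain of a vitronectin receptor, was 45.7, 52.0 and 49.8 FPKM in iEV and 46.7, 45.1 and 40.7 FPKM in iGLI2 libraries. The groups overlapped, and the log2 fold change was -0.15 (95% CI -0.35 to 0.045, adjusted p = 0.237, limma).

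ITGB6 (chr2:160956177-161056824, minus strand), the beta 6 chain, is found in epithelia and forms the receptor that releases active TGF-beta. It was 24.1, 27.9 and 26.6 FPKM in iEV and 19.7, 17.2 and 17.0 FPKM in iGLI2 libraries. Every iGLI2 library was below every iEV library, and the mean went from 26.2 ± 1.92 to 18.0 ± 1.48 FPKM (SD, n = 3). ITGB6 fell by 0.52 on the log2 scale (95% CI -0.73 to -0.31, adjusted p = 0.0105, limma). Without iEV replicate 2 or iEV replicate 3 the adjusted p was 0.0508, and the log2 fold changes were -0.47 and -0.51. Another gene of the same strand shares 16.7% of the exonic bases of ITGB6.

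The order of the levels was not the same in the groups. In iEV cells the means ran from ITGB1 over ITGAV, ITGB5, CD44 and ITGB6 down to ITGA5, SPP1, ITGB3, ITGA4 and ITGA9. The neighbours ITGA5 and SPP1 overlapped in FPKM there, as did ITGB3 and ITGA4, and ITGB5 (45.7 FPKM or more) stood just above CD44 (44.1 FPKM or less). In iGLI2 cells they ran from ITGB1 over SPP1, ITGAV, CD44, ITGB5 and ITGB6 down to ITGA5, ITGB3, ITGA4 and ITGA9, with SPP1 now next to the top and CD44 above ITGB5. CD44 reached 75.6 FPKM there and ITGAV was no lower than 75.7 FPKM.

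Ratios within a library do not depend on the scaling between libraries, and were used to compare the possible beta partners of alpha v. The ratio of ITGB1 to ITGAV was 3.88, 3.21 and 3.18 in iEV and 7.64, 6.15 and 6.13 in iGLI2 libraries, so that each iGLI2 library was above each iEV library (difference 0.95 on the log2 scale). The ratio of ITGB6 to ITGAV was 0.343, 0.337 and 0.313 in iEV and 0.260, 0.199 and 0.203 in iGLI2 libraries, a difference of -0.59. The ratio of ITGB3 to ITGAV was at most 0.00274 in iEV and at least 0.0153 in iGLI2 libraries, a difference of 3.02 that was 1.03 with 1 FPKM added to both values. For ITGB5 over ITGAV the groups overlapped (difference -0.21, exact permutation p = 0.2, adjusted p = 0.22). The ratio of ITGA5 to ITGB1 also overlapped between the groups (difference 0.59, 0.16 with 1 FPKM added, exact permutation p = 0.3), whereas that of ITGA5 to ITGAV did not (difference 1.55). With 3 libraries against 3, a two-sided exact permutation test cannot go below 0.1, which is the p of the comparisons without overlap, 0.122 when adjusted over the 11 comparisons made.

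Among the 5 beta subunits that can pair with alpha v, ITGB8 included, ITGB1 took a larger share of the summed FPKM in iGLI2 cells. Its share was 77.2%, 74.4% and 75.8% in iEV and 87.5%, 87.6% and 88.0% in iGLI2 libraries, 75.8 ± 1.40% against 87.7 ± 0.299% (SD, n = 3). The share of ITGB5 was 13.8 ± 0.825% in iEV and 7.16 ± 0.242% in iGLI2, and that of ITGB6 was 7.36 ± 0.506% and 2.91 ± 0.0699%. ITGB3 held 0.0520 ± 0.0178% in iEV and 0.247 ± 0.0693% in iGLI2 (a difference of 0.195 percentage points, 0.0778 with 1 FPKM added), and ITGB8 2.96 ± 0.247% and 1.99 ± 0.304%. The groups did not overlap in any of these 5 shares (exact permutation p = 0.1, the smallest possible, n = 3 against 3). The shares add up to the whole, so they do not move independently, and ITGB1 also pairs with alpha chains other than alpha v. A share of mRNA is not a share of receptor on the cell surface, which was not measured in these libraries.

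**Figure D2:**
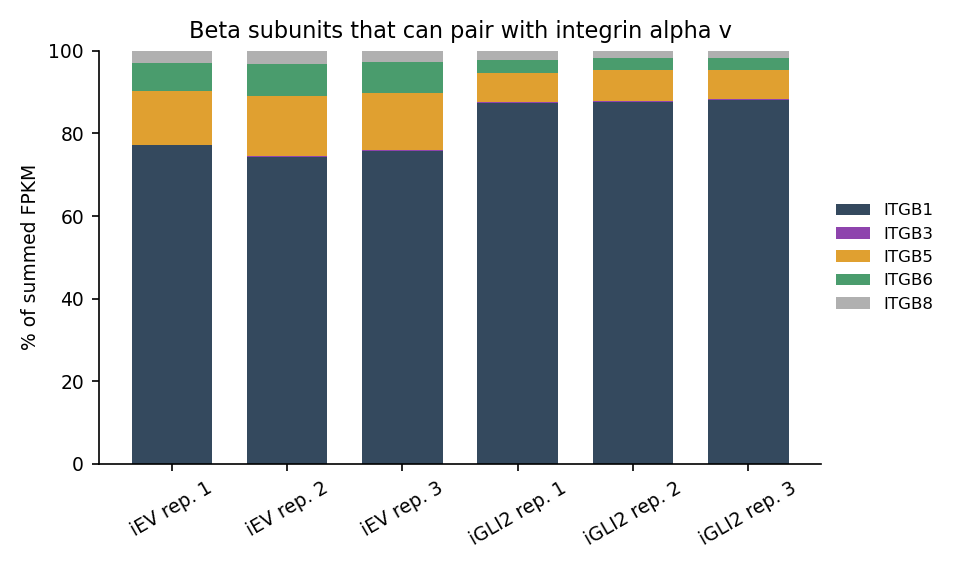
Share of each beta subunit in the summed FPKM of ITGB1, ITGB3, ITGB5, ITGB6 and ITGB8, as a stacked bar on a linear axis for each library. ITGB1 holds 74.4% to 77.2% in the iEV libraries and 87.5% to 88.0% in the iGLI2 libraries, while the ITGB3 band is too thin to see at under 0.4%.

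The other 18 integrin subunits put the receptor genes in their family. Of these, 9 were tested, 4 rose, 0 fell and 5 did not pass (44.4% called, 21.9% of all genes tested), with a median log2 fold change of 0.42. The 4 that rose were chains of laminin and collagen receptors. ITGB4, the hemidesmosome chain that pairs with alpha 6, was 47.9, 47.1 and 45.4 FPKM in iEV and 102, 151 and 152 FPKM in iGLI2 libraries and rose by 1.48 on the log2 scale (adjusted p = 0.00258, limma). ITGA3 went from 126 ± 8.52 to 288 ± 65.0 FPKM, ITGA6 from 98.6 ± 7.17 to 168 ± 6.23 FPKM and the collagen receptor chain ITGA2 from 52.5 ± 1.13 to 96.0 ± 0.748 FPKM (SD, n = 3), with log2 fold changes of 1.16, 0.76 and 0.86. All 4 stayed past the threshold with any library left out.

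Values of the 5 that did not pass were small changes or variable ones. ITGB2, the leukocyte beta chain, was 47.7 FPKM in iEV and 64.9 FPKM in iGLI2 on average (adjusted p = 0.114, limma), and its adjusted p was 0.00727 without iGLI2 replicate 1. ITGB8 was 10.5 and 12.3 FPKM, ITGA10 1.20 and 1.52 FPKM and ITGAE 4.07 and 3.27 FPKM. ITGA1 stood in the table only as an entry merged with PELO (25.0 and 28.2 FPKM, adjusted p = 0.0835), and these genes cannot be told apart there. ITGA8, whose pair with beta 1 also binds osteopontin, was at most 0.00457 FPKM. Over all 26 integrin subunits in the table, 14 were tested, of which 6 rose, ITGB6 alone fell and 7 did not pass. Of all genes tested, 21.9% passed, 10.1% upward and 11.8% downward. Of the 12 subunits not tested, ITGB3 and ITGA4 passed upward in the fit without the filter (adjusted p = 0.00372 and 0.00751, limma). In that fit 7.44% of all 20035 genes passed upward.

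**Figure D3:**
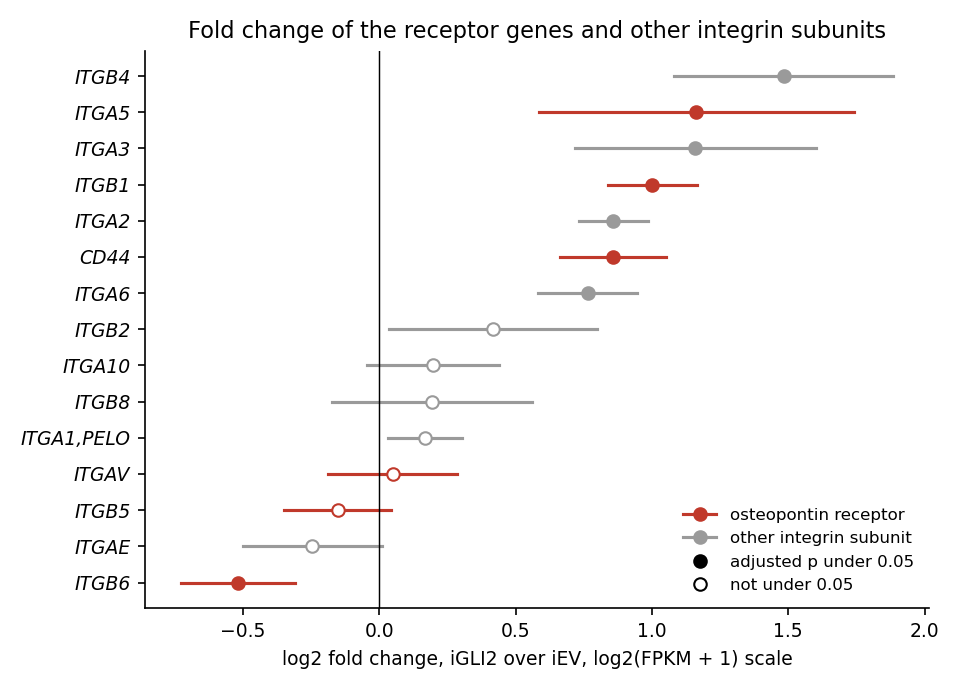
Log2 fold change of iGLI2 over iEV on the log2(FPKM + 1) scale for the 6 receptor genes tested (red) and the 9 other integrin subunits tested (grey), with lines for the 95% confidence interval, which is not adjusted for the number of genes, and filled points for an adjusted p under 0.05 (n = 3 against 3). The filled points are at 0.76 or above except ITGB6 at -0.52.

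Around CD44, 3 of the 12 partner genes tested rose and 2 fell, of 14 listed (41.7% called, 21.9% of all genes tested), with a median log2 fold change of 0.00067. Moesin (MSN), 1 of the 3 proteins that tie the CD44 tail to actin, was 34.6, 40.9 and 41.3 FPKM in iEV and 113, 138 and 129 FPKM in iGLI2 libraries and rose by 1.68 on the log2 scale (adjusted p = 0.000477, limma). The related radixin (RDX) rose from 86.6 to 115 FPKM (0.40), and ezrin (EZR), chosen after its values were seen as the remaining protein of that family, was 316 and 357 FPKM with overlapping groups (adjusted p = 0.36). MMP14, a membrane protease that can cleave CD44, rose from 20.0 to 27.5 FPKM (0.44). CD74, which forms a signalling complex with CD44, was 366, 454 and 428 FPKM in iEV and 84.0, 134 and 140 FPKM in iGLI2 libraries and fell by 1.83 on the log2 scale (adjusted p = 0.00296, limma).

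ESRP2, a splicing factor that acts on CD44 variant exons, fell by 0.37, from 15.7 to 11.9 FPKM, and did not pass when the small RNA genes were left out and the libraries rescaled (adjusted p = 0.0908). ESRP1, its relative, also named after its values were seen, was 85.1 ± 16.2 and 86.2 ± 22.5 FPKM (SD, n = 3) with overlapping groups. The number of CD44 partners called, 5, went to between 2 and 3 without iEV replicate 2, iEV replicate 3, iGLI2 replicate 2 or iGLI2 replicate 3. Over all genes tested, the number called went from 2742 to between 1222 and 1492 without these libraries. The call of RDX was lost without any of these 4 libraries (adjusted p 0.0713 to 0.0865), that of MMP14 without iEV replicate 2, iGLI2 replicate 2 or iGLI2 replicate 3 (0.0526 to 0.0593), and that of ESRP2 without any library other than iGLI2 replicate 1 (0.0616 to 0.1004).

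Integrin adaptors, the proteins that join beta tails to actin and kinases, had a median log2 fold change of -0.049, which was 0.019 when the small RNA genes were left out. Of 31 listed, 27 were tested, 2 rose, 5 fell and 20 did not pass, so that 25.9% were called, near the 21.9% of all genes tested. Integrin-linked kinase (ILK) and its partner parvin alpha (PARVA) fell together, ILK from 62.8 ± 2.33 to 33.2 ± 2.41 FPKM and PARVA from 19.2 ± 0.590 to 11.3 ± 1.35 FPKM (SD, n = 3), by 0.90 and 0.72 on the log2 scale. RSU1, another protein of that complex and the least of the 5 decreases, fell by 0.23 (adjusted p = 0.0445, limma) and is named after its values were seen. Its adjusted p was between 0.0871 and 0.161 without any library other than iGLI2 replicate 1, 0.0861 with the code digit of the sample titles as a block, 0.121 with the small RNA genes left out, 0.0721 with no filter and 0.0520 without the intensity trend. Among the other listed proteins of that complex, LIMS1 (log2 fold change -0.29, adjusted p = 0.192, limma) and PARVB (0.0053, adjusted p = 0.977, limma) did not pass. LIMS2, not tested at under 1 FPKM, went from 0.134 to 0.594 FPKM without overlap. In the fit without the filter LIMS2 rose by 0.49 (adjusted p = 0.00286, limma). These names were also chosen after their values were seen. SRC, the kinase, fell by 0.64, from 25.8 to 16.1 FPKM. TNS4, a tensin, fell by 1.26, from 110 ± 39.5 to 45.0 ± 14.7 FPKM (SD, n = 3).

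Zyxin (ZYX), a protein of actin-rich adhesions, rose by 1.08, from 31.4 ± 4.09 to 69.2 ± 19.5 FPKM (SD, n = 3), and was lowest of the iGLI2 libraries in replicate 1 at 46.7 FPKM. FERMT1, a kindlin, rose by 0.21 with an adjusted p of 0.0494. The number of adaptors called, 7, was 13 without iGLI2 replicate 1, 4 without iEV replicate 1 and 3 without any of the other 4 libraries. Over all genes tested, the number called, 2742, was 3744, 2165 and between 1222 and 1492 in the same fits. Calls of ZYX, TNS4 and FERMT1 were lost when iEV replicate 2 or 3 or iGLI2 replicate 2 or 3 was left out, those of TNS4 and FERMT1 also without iEV replicate 1, with adjusted p between 0.0673 and 0.181. With the code digit as a block the adjusted p was 0.0590 for TNS4 and 0.0750 for FERMT1, and with no filter it was 0.0514 and 0.0559. FERMT1 was also over the threshold with a pseudocount of 0.1, upper quartile scaling, quantile normalization or no intensity trend (0.0511 to 0.0593). ILK, PARVA and SRC stayed past the threshold with any library left out.

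Among 10 relatives and modifiers of osteopontin listed, 3 were tested and 2 fell (66.7% called, 21.9% of all genes tested), both of them enzymes that act on the protein. TGM2, the transglutaminase that crosslinks osteopontin, was 115, 141 and 131 FPKM in iEV and 42.7, 51.5 and 51.4 FPKM in iGLI2 libraries and fell by 1.39 on the log2 scale (adjusted p = 0.000921, limma). MMP7, a protease that cleaves it near the integrin motifs printed above, was 312, 333 and 299 FPKM in iEV and 80.7, 178 and 162 FPKM in iGLI2 libraries and fell by 1.24 (adjusted p = 0.0339, limma). The MMP7 call was lost without iEV replicate 1, iEV replicate 2, iEV replicate 3 or iGLI2 replicate 3 (adjusted p between 0.0601 and 0.111), and also with the code digit of the sample titles as a block (0.0591). FAM20C, the kinase that phosphorylates secreted proteins, was 2.03 and 1.68 FPKM with overlapping groups. The related bone proteins IBSP and DSPP were listed at 0 in all 6 libraries.

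Other ligands of the same receptors went both ways. Of 18 listed, 12 were tested, 6 rose and 2 fell (66.7% called, 21.9% of all genes tested), with a median log2 fold change of 0.32. Thrombospondin 1 (THBS1) was 3.29, 4.76 and 4.56 FPKM in iEV and 11.2, 18.7 and 19.4 FPKM in iGLI2 libraries and rose by 1.72 on the log2 scale (adjusted p = 0.00466, limma). Tenascin C (TNC) rose from 3.39 to 10.6 FPKM, the latent TGF-beta binding protein LTBP1 from 2.36 to 5.82 FPKM and MFGE8, a ligand of alpha v integrins, from 58.4 to 117 FPKM. Fibronectin (FN1), the main ligand of alpha 5 beta 1, fell by 0.67, from 5.13 to 2.84 FPKM, and the matrix protein CYR61 (CCN1) fell by 1.18, from 24.2 to 9.91 FPKM.

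In iGLI2 cells SPP1, at 461 ± 152 FPKM (SD, n = 3), was above each of these other ligands named. The number of ligands called, 8, went to 4 without iEV replicate 2 or iEV replicate 3 and to 5 without iGLI2 replicate 2. Over all genes tested, the number called went from 2742 to 1222, 1295 and 1362 in these fits. Calls of TNC and CYR61 were lost without iEV replicate 2 or 3, and that of CYR61 also without iGLI2 replicate 2, with adjusted p between 0.0502 and 0.0554.

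**Figure D4:**
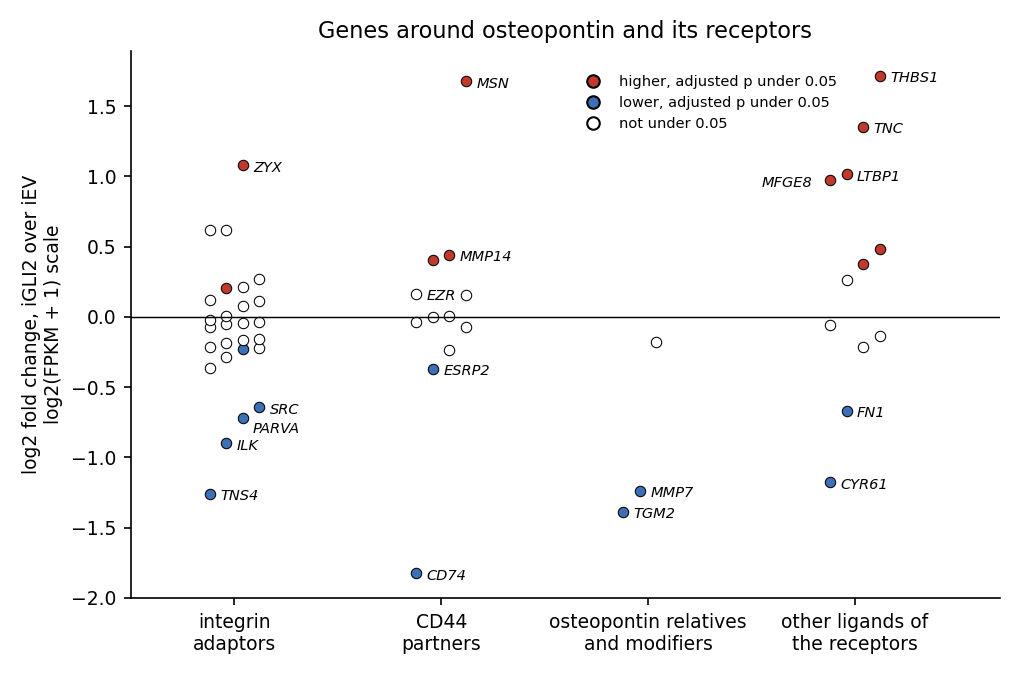
Log2 fold change of iGLI2 over iEV on the log2(FPKM + 1) scale for each tested gene of 4 lists, red if higher and blue if lower with an adjusted p under 0.05 and white otherwise (n = 3 against 3). MSN and THBS1 are the highest points at 1.68 and 1.72, and CD74 is the lowest at -1.83.

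Genes whose pattern over the 6 libraries was nearest to SPP1 or CD44 were found by the root mean square difference of log2(FPKM + 1), each gene centred on its own mean. Nearest to SPP1 was GLI2 at 0.367, then MIR4517 at 0.661, which was listed at 0 in all iEV libraries, then FGF19 at 1.07. Nearest to CD44 were MATN3 at 0.0283, PDGFD at 0.0527 and GNG2 at 0.0532. MATN3, a cartilage matrix protein, was 2.85, 2.26 and 2.20 FPKM in iEV and 5.23, 4.88 and 5.08 FPKM in iGLI2 libraries. With 6 libraries in 2 groups, such likeness is mostly that of the group difference.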

How the data were processed

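RNA from 6 YAPC libraries (3 iEV, 3 iGLI2, grouped by the sample titles) was sequenced after TruSeq library preparation. The authors used Trimmomatic for trimming, TopHat2 for alignment to hg19 and, per the submitters' processing notes, Cuffdiff 2.1.1. The deposited table names no unit, and its values were read as FPKM from their form. The gene annotation is not given in the sources used here. Of 27024 entries, 1252 off the primary chromosomes and 330 with a duplicated name and a lower mean were left out. Columns that matched no sample numbered 0.

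Genes whose mean reached 1 FPKM were compared on log2(FPKM + 1) by limma 3.58.1 under R 4.3.3 (condition as the only term, intensity trend, Benjamini-Hochberg, threshold 0.05), two-sided. A test for counts did not apply to these values. The test was checked on simulated data. Ratios were compared with exact permutation tests (scipy 1.17.1). Members, lists and tests were chosen with earlier results of these data known. Named were the members, GLI2, the other integrin subunits at 1 FPKM or more in the higher group, the 4 smallest p in each direction of every other list among genes past the threshold, and the 3 genes nearest to SPP1 and to CD44. Other names were chosen after their values were seen. Ranks are by mean level among the genes tested. Names were matched through a RefSeq gene table, and sequences came from GRCh37 with GENCODE release 44. Alternatives were other pseudocounts (0.1, 0.5), filters (none, 5 FPKM), scalings, variance moderation, threshold (0.01), blocks and each library left out. Fits without the filter for ITGB3, ITGA4 and ITGA9 under left-out libraries and list counts were added after seeing the data.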

Additional observations from a re-analysis of the deposited data

How the results depend on the processing

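The number of genes called, 2742, was 1095 at an adjusted p under 0.01 and between 1222 (without iEV replicate 2) and 3744 (without iGLI2 replicate 1) with a library left out. The number of members called, 5, was 3 at an adjusted p under 0.01 (SPP1, CD44 and ITGB1) and between 3 (without iEV replicate 2 or 3) and 5 with a library left out. ITGAV was the one member whose direction turned, to -0.034 without iEV replicate 1 (adjusted p = 0.801, limma), and ranged from there to 0.10 with a library left out. Of 132 values of the members under the alternatives, 124 kept their direction and their side of the threshold. The 7 that lost it were ITGA5 (5 of 15 alternatives) and ITGB6 (2 of 16), all with a library left out. The 132 include values of ITGAV, ITGB5 and ITGA9, which had no call to lose. Of 537 values of the 34 other named genes, 45 lost the threshold, 35 of them with a library left out, 3 passed it anew and 0 turned. The 3 were ITGB2, with an adjusted p of 0.0245 with the small RNA genes left out, 0.0442 with the replicate block and 0.00727 without iGLI2 replicate 1. With these genes left out and the libraries rescaled, 59.4% of 3018 called genes were higher, against 46.0% of the 2742, and the median log2 fold change of all genes was 0.055. Deviations of same-numbered libraries correlated at 0.204, 0.0919 and 0.0277, the first being the highest of all pairs of an iEV and an iGLI2 library. These values do not settle whether the numbers pair the samples. The replicate block gave 3928 called genes and 5 called members, while iEV replicate 2 correlated best with iGLI2 replicate 3 (0.117). With the code digit of the sample titles as the block there were 2084 called genes and 5 called members. FPKM give no counts, so low levels such as those of ITGA9 have no counting interval.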

Other observations

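A sum was taken, after the values were seen, of 6 alpha chains that can pair with ITGB1 and had a mean of 1 FPKM or more (ITGA2, ITGA3, ITGA5, ITGA6, ITGA10 and ITGAV). In iEV cells the sum was 359 ± 8.36 FPKM, and with GLI2 it was 640 ± 73.0 FPKM (SD, n = 3), a ratio of 1.78, beside the ratio of 2.01 for ITGB1 itself. Not all of it is open to ITGB1, as ITGAV pairs with other beta chains too. ITGA6 also pairs with ITGB4, which went from 46.8 to 135 FPKM. The share of ITGAV in this sum was 20.1%, 22.6% and 23.4% in the iEV libraries and 13.6%, 12.6% and 12.4% in the iGLI2 libraries, without overlap. ITGA3, the laminin receptor chain, held 35.0 ± 1.57% in iEV and 44.5 ± 5.51% in iGLI2, and ITGA5 held 0.462 ± 0.130% and 0.775 ± 0.158%. The entry that merges ITGA1 with PELO and the partners under 1 FPKM, such as ITGA4, ITGA8 and ITGA9, were left out of the sum.

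SPP1, ITGAV, ITGA5 and ITGB3 were lowest in replicate 1 of both groups. Against the mean of replicates 2 and 3, ITGA5 was at 0.568 in iGLI2 and 0.559 in iEV, ITGB3 was at 0.686 and 0.503, SPP1 at 0.521 and 0.767 and ITGAV at 0.890 and 0.839. CD44, ITGB1 and ITGB6 were at 1.05, 1.11 and 1.15 of that mean in iGLI2 replicate 1, the library in which GLI2 was at 0.470. What sets this library apart was not tested.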
